A study of Caenorhabditis elegans with 2 samples.

Results

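The regions described here were peaks of a chromatin immunoprecipitation sequencing (ChIP-seq) experiment on the transcription factor ZTF-11 that lay in the 2 stretches of Caenorhabditis elegans chromosome IV where most piRNA genes sit. A peak was a member when its summit fell at ce11 positions chrIV:4500001-7000001, called the proximal window here, or chrIV:13500001-17200001, called the distal window. Of the 30000 peaks of the replicate 1 list, 4517 lay on chromosome IV and 1122 were members, 625 in the proximal and 497 in the distal window. The replicate 2 list held 129 members of 364 chromosome IV peaks and 2036 peaks in all. The list made from both replicates pooled held 24 members of 86 chromosome IV peaks and 631 in all, and the thresholded list derived from the others held 1 member of 5 chromosome IV peaks and 96 in all. The choice used position only, and the windows were drawn around the piRNA clusters, so nearness to piRNA genes, their motif and base composition differ between the windows and the rest by that choice; they are set beside all positions of the windows.

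The animals were whole larvae of the L3 stage, males and females pooled, of strain OP236, with the mutant allele unc-119(ed3) III and the transgene wgIs236. The target was ZTF-11 fused to enhanced green fluorescent protein (eGFP) and expressed from that transgene, in 2 biological replicates of 1 group. The labels give ztf-11 as the antibody's target, so it is not settled whether the tag or the protein was precipitated. Both replicates carry the same allele and transgene, no untagged or wild-type sample was used here, and whole larvae mix all tissues, so a peak does not say in which cells the protein was bound.

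C. elegans piRNAs, called 21U-RNAs, are small RNAs that begin with U and are bound by the Piwi protein PRG-1 in the germline, where they help to silence foreign sequences. Each is transcribed from its own very short gene, annotated under a 21ur name, and many of these genes carry an upstream motif with the core CTGTTTCA. The genes are crowded into the 2 stretches of chromosome IV, in AT-rich DNA between and inside protein-coding genes. ZTF-11 is a zinc finger protein of the Myt1 family, which is known for repressing non-neuronal genes during neurogenesis, and AAGTTT is the core of the sites bound by that family.

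To show what these peaks look like in sequence, the following sequences give 100 bp to either side of a summit, from the RefSeq sequence of WBcel235 (the same sequence as ce11), plus strand. The first is the member of the thresholded list. The next 3 are the strongest replicate 1 members that held CTGTTTCA within 100 bp of a 21ur gene, and the last 3 are their replicate 2 counterparts, picked after their values were seen. Capitals mark the CTGTTTCA core, written TGAAACAG where it lies on the minus strand, and the annotated 21ur genes that fit whole into the stretch.
Thresholded member between rpl-20 and Y17G9B.5, chrIV:4749953-4750153: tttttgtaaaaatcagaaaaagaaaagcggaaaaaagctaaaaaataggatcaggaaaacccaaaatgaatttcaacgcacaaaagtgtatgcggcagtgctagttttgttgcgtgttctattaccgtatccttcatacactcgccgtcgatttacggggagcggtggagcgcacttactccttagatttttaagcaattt
Replicate 1 member at 21ur-11060 and 21ur-10777, chrIV:5639186-5639386: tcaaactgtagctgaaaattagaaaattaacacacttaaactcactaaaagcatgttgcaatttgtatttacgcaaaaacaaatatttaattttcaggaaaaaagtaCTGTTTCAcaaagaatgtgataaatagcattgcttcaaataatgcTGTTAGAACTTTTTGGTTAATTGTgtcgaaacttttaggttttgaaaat
Replicate 1 member at 21ur-9818, chrIV:6480171-6480371: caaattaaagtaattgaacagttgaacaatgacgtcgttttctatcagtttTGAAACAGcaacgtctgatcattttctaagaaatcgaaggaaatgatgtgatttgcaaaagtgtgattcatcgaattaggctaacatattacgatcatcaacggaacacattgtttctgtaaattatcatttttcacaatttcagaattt
Replicate 1 member at 21ur-2705, chrIV:14888798-14888998: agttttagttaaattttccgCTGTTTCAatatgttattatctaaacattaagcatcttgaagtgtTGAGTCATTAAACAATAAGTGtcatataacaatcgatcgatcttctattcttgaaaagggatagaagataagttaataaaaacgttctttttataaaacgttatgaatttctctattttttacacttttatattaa
Replicate 2 member at 21ur-3366, 21ur-516 and 21ur-10370, chrIV:15537173-15537373: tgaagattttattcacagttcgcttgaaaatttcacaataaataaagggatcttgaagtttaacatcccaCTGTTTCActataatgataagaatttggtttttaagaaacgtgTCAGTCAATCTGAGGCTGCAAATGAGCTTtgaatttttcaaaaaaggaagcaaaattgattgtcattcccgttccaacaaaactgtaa
Replicate 2 member at 21ur-12276, chrIV:14373035-14373235: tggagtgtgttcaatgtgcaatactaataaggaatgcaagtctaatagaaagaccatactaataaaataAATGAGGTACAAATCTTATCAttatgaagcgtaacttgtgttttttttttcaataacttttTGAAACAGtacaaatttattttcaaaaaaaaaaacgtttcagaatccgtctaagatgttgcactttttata
Replicate 2 member near 21ur-9273 and 21ur-2475, chrIV:14599826-14600026: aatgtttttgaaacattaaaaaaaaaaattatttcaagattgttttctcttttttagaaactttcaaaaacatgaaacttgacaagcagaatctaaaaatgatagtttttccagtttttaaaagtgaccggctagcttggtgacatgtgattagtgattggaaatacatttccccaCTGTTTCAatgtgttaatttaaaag

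The thresholded member held neither CTGTTTCA nor a 21ur gene in its stretch. In the replicate 1 member at chrIV:5639186-5639386 the core began 7 bp past the summit and the 5′ ends of 21ur-11060 and 21ur-10777 followed 45 and 48 bp after it on the same strand. In the replicate 2 member at chrIV:15537173-15537373 a single core preceded 3 overlapping genes, 21ur-3366, 21ur-516 and 21ur-10370, by 43, 47 and 51 bp. The stretches chrIV:6480171-6480371 and chrIV:14373035-14373235 carried the core on the minus strand, 46 bp upstream of 21ur-9818 and 48 bp upstream of 21ur-12276. These spacings match the annotation of the windows as a whole: 5010 of 14204 window 21ur genes (35.3%) had CTGTTTCA within 100 bp upstream on their own strand, at a median of 46 bp (quartiles 45 and 47 bp).

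The windows cover 6.2 Mb, which is 35.4% of chromosome IV, and hold 14204 of its 14714 annotated 21ur genes (96.5%), of 15363 on all nuclear chromosomes. The distal window is the denser one, with 3078 21ur genes per Mb, against 1126 per Mb in the proximal window, while the rest of chromosome IV has 45.2 per Mb. CTGTTTCA, counted on both strands, occurs 796 times per Mb in the windows and 81.8 times per Mb on the rest of the chromosome. Protein-coding genes are sparser in the windows, at 152 per Mb, than on the rest of the chromosome, at 207 per Mb. The windows contain 33.0% GC, and the rest of chromosome IV contains 35.5%.

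The deposited lists are the input to a reproducibility analysis and hold weak peaks as well as strong ones. Each peak carries a signal score given by the authors, in units that no source used here states, and a q-value. A q-value of 0.05 or less was attached to 55 of 1122 replicate 1 members (4.90%), against 167 of 3395 other chromosome IV peaks (4.92%) and 4.91% of the whole list. In replicate 2, it was attached to 1 of 129 members and 2 of 235 other chromosome IV peaks, and to none of the 74 distal members, for which the exact 95% upper limit is 4.86%. Over the whole replicate 2 list it was attached to 56 of 2036 peaks (2.75%). The number of reads behind each list is unknown. The p-values below come from exact tests that count each summit as independent, so they and the intervals cover counting error only. They measure neither how unevenly summits lie along the chromosome nor the spread between animals. Replicate 1 summits per 100 kb ranged from 12 to 48 on the rest of chromosome IV.

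Replicate 1 had fewer peaks per length in the piRNA cluster windows than elsewhere on the chromosome, and replicate 2 did not. In replicate 1 the windows held 181 peaks per Mb, against 301 per Mb on the rest of chromosome IV, a ratio of 0.602 (exact 95% interval 0.562 to 0.644, two-sided exact rate test, Benjamini-Hochberg adjusted p = 3.19e-52 over 5 tests). The denser distal window had 134 peaks per Mb, a ratio of 0.447 to the rest of the chromosome, and the proximal window had 250 per Mb, a ratio of 0.832. In replicate 2 the windows held 20.8 peaks per Mb, and so did the rest of chromosome IV. The ratio was 1.00 (exact 95% interval 0.800 to 1.24, exact rate test p = 1). The proximal window had 55 replicate 2 peaks in 2.5 Mb and the distal window 74 in 3.7 Mb.

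Set directly against each other, the replicates differed. Members made up 24.8% of the replicate 1 chromosome IV peaks, against 35.4% in replicate 2 (Fisher's exact test, adjusted p = 3.10e-05 over 6 tests chosen after the data were seen). The difference was also present when the replicate 1 list was shortened to as many of its strongest peaks as replicate 2 has, of which 310 lay on chromosome IV: 76 of them were members (24.5%; Fisher's exact test, adjusted p = 0.00369). In the pooled list the windows had 3.87 peaks per Mb, against 5.49 per Mb on the rest of chromosome IV, and the exact test did not separate them (ratio 0.705, exact 95% interval 0.421 to 1.15, adjusted p = 0.703). The 9 pooled peaks of the distal window were a rate ratio of 0.443 (exact p = 0.0186, adjusted p = 0.0743). The depth of each replicate is unknown, and its part in the difference was not tested.

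**Figure D1:**
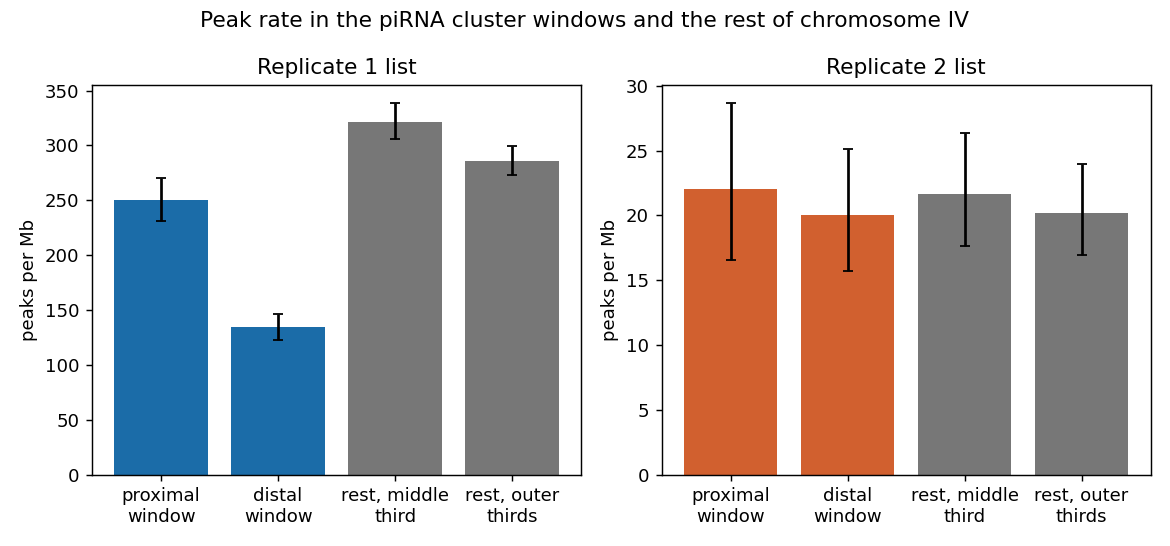
Peaks per Mb (vertical axis, from 0) in the proximal and distal windows and in the middle and outer parts of the rest of chromosome IV, for the replicate 1 list (left) and the replicate 2 list (right). Bars are counts over length and error bars exact Poisson 95% intervals, which cover counting error only. In replicate 1 the distal window stands at 134 peaks per Mb, below the 250 of the proximal window, the 321 of the middle and the 286 of the outer parts, while the 4 intervals of replicate 2 overlap.

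The deficit of replicate 1 was also seen in single stretches of the distal window. Among 999 bins of 100 kb on all nuclear chromosomes, 55 held 14 replicate 1 summits or fewer, and 20 of these were among the 37 bins of the distal window. The proximal window supplied 1 of them from 25 bins, the rest of chromosome IV 2 from 112 bins and the other chromosomes 32. Bins of the distal window had a median of 13 replicate 1 summits (range 5 to 31), bins of the proximal window 23 (10 to 52) and bins of the rest of chromosome IV 30 (12 to 48).

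Within the windows, the bins with fewest replicate 1 summits formed 1 run, chrIV:16600001-16700000, chrIV:16700001-16800000 and chrIV:16800001-16900000, with 5 replicate 1 summits each and 358, 277 and 256 21ur genes. The bin with most 21ur genes, 486 at chrIV:16000001-16100000, had 6 replicate 1 summits and 3 replicate 2 summits. At the other end, the start of the proximal window holds hardly any 21ur genes: chrIV:4500001-4600000 has none, chrIV:4600001-4700000 has 1 and chrIV:4700001-4800000 has 8. Those 3 bins had 42, 52 and 38 replicate 1 summits, so the fixed edge of the proximal window took in a peak-rich stretch with few piRNA genes.

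Over the 62 bins of the windows, replicate 1 summits fell with the number of 21ur genes (Pearson's r = -0.60, Spearman's rho = -0.57) and increased with GC content (r = 0.80, rho = 0.71). Within the proximal window alone r with 21ur genes was -0.41, and within the distal window -0.26. With the number of protein-coding genes per bin r was 0.39 and rho 0.49. The first 2 properties moved together over the bins (r = -0.76 between 21ur genes and GC content), so these coefficients are not independent of each other. By bin, replicate 2 summits showed little correlation with 21ur genes (r = 0.01, rho = 0.03) or GC content (r = -0.07, rho = -0.08). Replicate 2 had a median of 2 summits per bin in each window, against 23 in the proximal and 13 in the distal window for replicate 1. Counts this small weaken a coefficient, so those of the replicates are not directly comparable. The bins of a replicate come from 1 library and neighbours are alike in base composition, so the coefficients are given as descriptions.

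**Figure D2:**
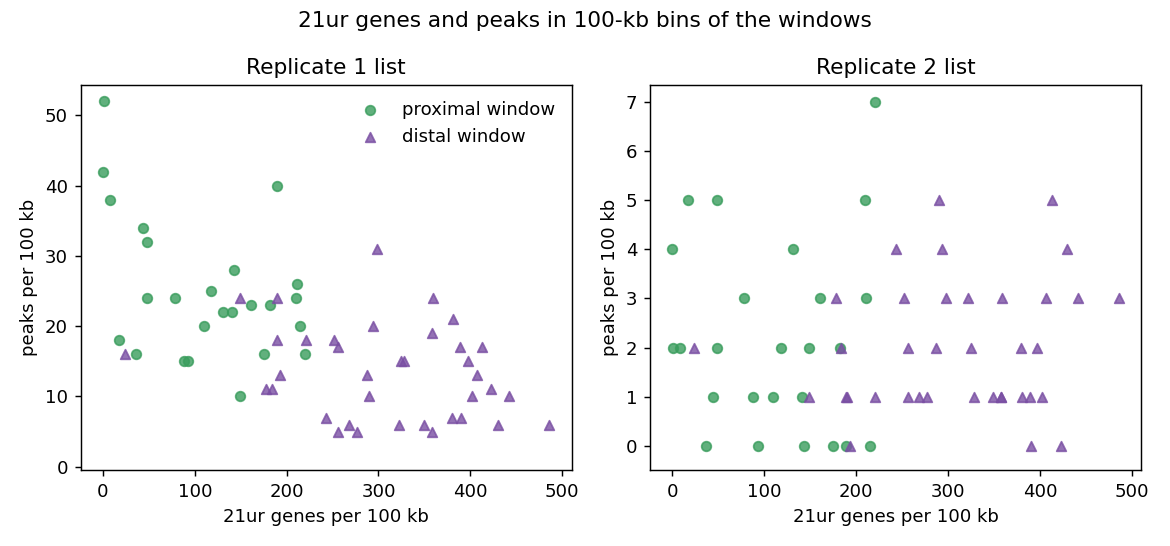
Summits per 100-kb bin (vertical axes, counts) against annotated 21ur genes per bin (horizontal axes), for the 25 bins of the proximal window (circles) and the 37 bins of the distal window (triangles), replicate 1 left and replicate 2 right. In replicate 1 the 3 bins with 5 summits are all distal and the bins with more than 40 summits are proximal ones with few 21ur genes; replicate 2 has 0 to 7 summits per bin in the proximal and 0 to 5 in the distal window.

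At closer range, replicate 1 members lay next to piRNA genes less often than the positions of the windows do, and less often than replicate 2 members. The summit was within 100 bp of the annotated 5′ end of a 21ur gene in 142 of 1122 replicate 1 members (12.7%, exact 95% interval 10.8 to 14.7%), against 29.8% of all positions of the windows. In replicate 2 it was in 47 of 129 members (36.4%, interval 28.1 to 45.4%), an interval that takes in the 29.8% of all positions. The replicates differed from each other (Fisher's exact test, adjusted p = 9.01e-10). The pooled list had 5 such members of 24 (20.8%, interval 7.13 to 42.2%).

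The median distance from a summit to the nearest 21ur 5′ end was 792.5 bp for replicate 1 members and 208 bp for replicate 2 members, against 249 bp over all positions of the windows. In the distal window alone the median was 332 bp for replicate 1 members, against 155 bp over all positions. Within the distal window 95 of 497 replicate 1 members (19.1%) and 37 of 74 replicate 2 members lay within 100 bp of a 21ur 5′ end, against 38.5% of positions. In the proximal window it was 47 of 625 (7.52%) and 10 of 55 (18.2%), against 17.0% of positions.

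**Figure D3:**
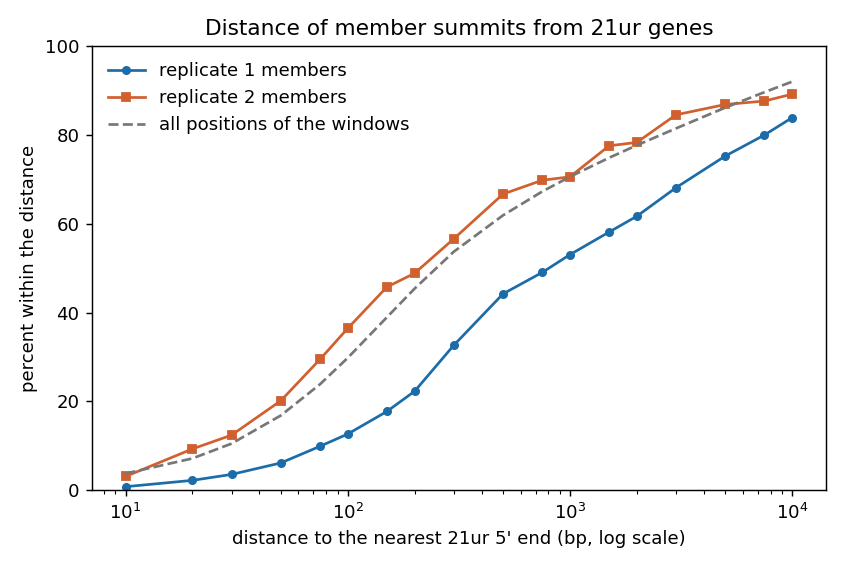
Percent of member summits (replicate 1 circles, replicate 2 squares) and of all window positions (dashed line) that lie within a given distance of the nearest 21ur 5′ end (horizontal axis, bp, log scale). At 100 bp the replicate 1 members stand at 12.7% and the replicate 2 members at 36.4%, against 29.8% of positions.

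Seen from the piRNA genes, few lay under a peak. Of the 14204 window 21ur genes, 336 had their 5′ end inside a replicate 1 peak (2.37%, exact 95% interval 2.12 to 2.63%), while replicate 1 members covered 5.72% of the positions of the windows. Outside the windows it was 86 of 1159 (7.42%, interval 5.98 to 9.08%), with 9.69% of the positions covered. The share over all chromosomes was 2.75%, but most of those genes are the window genes themselves. For replicate 2 it was 126 genes (0.887%, interval 0.739 to 1.06%) with 0.746% of the positions covered, and outside the windows 14 (1.21%, interval 0.662 to 2.02%) with 0.716% covered; over all chromosomes it was 0.911%. The pooled list reached 12 window genes (0.0845%) and covered 0.122% of the positions, and outside the windows it reached 5 (0.431%) and covered 0.198%, with 0.111% of genes over all chromosomes. The thresholded list reached none of the window genes, for which the exact 95% upper limit is 0.0260%, and 0% over all chromosomes. The share of window genes was below the covered share in replicate 1, and its interval in replicate 2 began just under the covered share. Intervals and limits of this kind take each 21ur gene as independent and cover counting error only. A replicate 1 peak held up to 5 window 21ur genes and a replicate 2 peak up to 7, so these intervals are too narrow.

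Genes with the upstream core were in a replicate 1 peak somewhat more often than genes without it, a difference that was not tested. Of the 5010 window 21ur genes with CTGTTTCA upstream, 136 were in a replicate 1 peak (2.71%, exact 95% interval 2.28 to 3.20%), and of the 9194 without it 200 were (2.18%, interval 1.89 to 2.49%). In replicate 2 the shares were 0.898% with and 0.881% without the core. The pooled list went the other way, with 2 genes with the core (0.0399%) and 10 without it (0.109%).

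Some members contained piRNA genes outright. Of the replicate 1 members 207 (18.4%) contained at least 1 annotated 21ur 5′ end and 915 contained none, while 61 of the replicate 2 members (47.3%) and 7 of the pooled ones contained at least 1. Replicate 1 peaks are 320 bp wide and replicate 2 peaks 360 bp at the median. The fullest replicate 2 member, chrIV:13954094-13954453 in Y37A1A.4, held 7 and had a signal score of 14.8, rank 1925 in its list. Others with 6 lay at chrIV:14599746-14600105, chrIV:15281000-15281359 and in daf-38, a gene for a receptor of ascaroside pheromones, at chrIV:15822286-15822645. The fullest replicate 1 members held 5, at chrIV:15844079-15844398, chrIV:16707050-16707369 and chrIV:13711588-13711907, and ranked 22543, 29187 and 29216. These replicate 1 members stood low in a list of 30000.

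The CTGTTTCA core gave the same picture as the 21ur genes. It stood within 100 bp of the summit, on either strand, in 77 of 1122 replicate 1 members (6.86%, exact 95% interval 5.45 to 8.50%), against 14.6% of all windows of 201 bp in the same stretches. In replicate 2 it stood in 18 of 129 members (14.0%, interval 8.48 to 21.2%), and the replicates differed (Fisher's exact test, adjusted p = 0.00759). None of the 24 pooled members held it (exact 95% upper limit 14.2%). Of 76 members among the strongest replicate 1 peaks, 5 (6.58%) lay within 100 bp of a 21ur 5′ end and 2 (2.63%) held CTGTTTCA. As ratios to all positions these were 0.221 (exact 95% interval 0.0729 to 0.493) and 0.180 (interval 0.0220 to 0.630). The ratios of all replicate 1 members, 0.425 and 0.471, lay inside these intervals. The median GC content of the 76 was 45.8%, against 40.3% for all replicate 1 members. On the rest of chromosome IV the core stood at 48 of 3395 replicate 1 summits (1.41%), against 1.55% of positions there.

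Base composition moved with these results. The median GC content within 100 bp of the summit was 40.3% in replicate 1 members and 40.8% in the other chromosome IV peaks, both above the positions they came from, at 31.8% in the windows and 35.3% on the rest of the chromosome. Replicate 2 members had a median of 29.9% GC and the other replicate 2 peaks 33.8%, both below those of all positions. The 21ur genes lie in AT-rich sequence, with a median of 27.4% GC within 100 bp of their 5′ ends. The share of replicate 1 members near a 21ur gene was therefore compared again among positions of the same GC content, a comparison added after the data were seen.

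At the same GC content, in classes of 2.5 percentage points, 142 replicate 1 members lay within 100 bp of a 21ur 5′ end, where the positions of the windows would give 136 (ratio 1.05). For CTGTTTCA it was 77 members, where the positions would give 68.4 (ratio 1.13). The shortfall of replicate 1 members at piRNA genes and their motif was not present among positions of equal GC content. For replicate 2 the ratios were 1.09 for 21ur genes and 0.859 for CTGTTTCA. The lower peak rate of the windows in replicate 1 was reduced but still present: 1122 members, where the rates on the rest of chromosome IV at equal GC content would give 1425 (ratio 0.787). For replicate 2 the same ratio was 0.958.

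The rate ratio of replicate 1 was below 1 in each of 5 bands of GC content. Between 20 and 30% GC it was 0.611, with 30.9 peaks per Mb in the windows and 50.6 on the rest of the chromosome. Between 30 and 35% it was 0.722, between 35 and 40% 0.801, between 40 and 45% 0.860 and between 45 and 60% 0.782. Replicate 1 peaks thickened with GC content everywhere, reaching 600 per Mb in the windows and 767 per Mb on the rest of the chromosome in the highest band. In the lowest band, where most 21ur genes lie, 45 of 77 replicate 1 members (58.4%, exact 95% interval 46.6 to 69.6%) were within 100 bp of a 21ur 5′ end, against 49.9% of positions. The part of GC content in the peak rates beyond these bands was not tested.

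**Figure D4:**
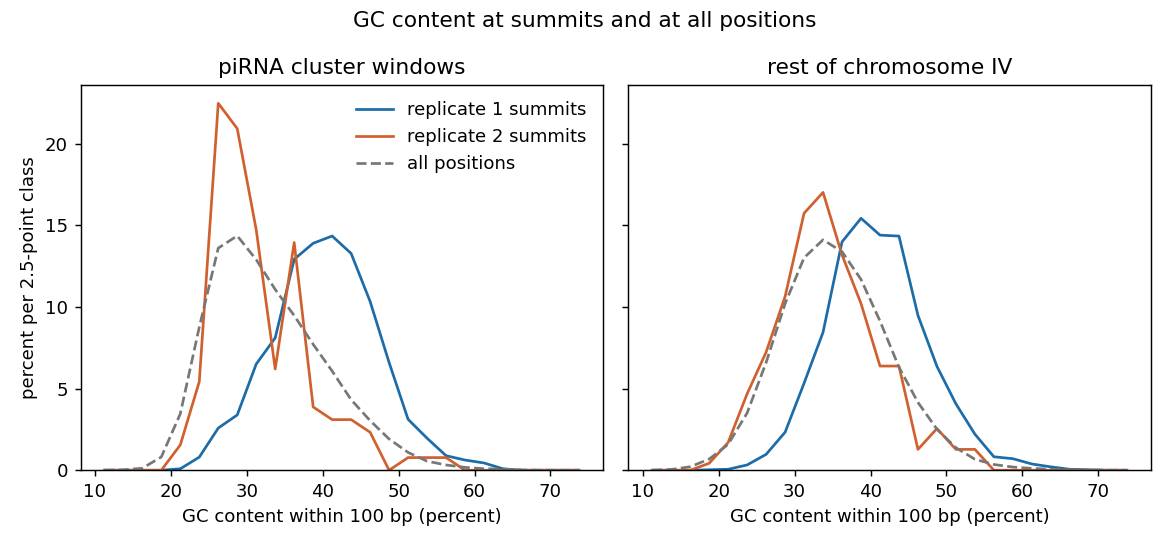
Distribution of GC content within 100 bp (horizontal axis, percent) of replicate 1 summits, replicate 2 summits and all positions (dashed), as the percent falling in each 2.5-point class, in the piRNA cluster windows (left) and on the rest of chromosome IV (right). In the windows the replicate 1 summits lie to the right of all positions (medians 40.3% and 31.8%) and the replicate 2 summits to the left (29.9%).

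Members of replicate 1 sat in exons more often than the positions of the windows, and those of replicate 2 did not, as on the rest of chromosome IV. An exon outside promoters held the summit of 401 replicate 1 members (35.7%, exact 95% interval 32.9 to 38.6%), against 15.2% of positions, and intergenic sequence held 282 (25.1%), against 44.4% of positions. Intergenic here means outside protein-coding genes and their promoters, so it takes in genes for non-coding RNAs and pseudogenes. In replicate 2 an exon held 12 of 129 (9.30%, interval 4.90 to 15.7%), an intron 41 (31.8%) and intergenic sequence 52 (40.3%). On the rest of chromosome IV an exon held 38.0% of replicate 1 peaks and 19.6% of replicate 2 peaks, against 23.5% of positions. Intergenic sequence there held 19.9% of replicate 1 peaks, against 26.9% of positions. The part of GC content in these shares was not tested. A promoter, taken as 500 bp to either side of a protein-coding 5′ end, held 200 replicate 1 members (17.8%), against 720 of 3395 other chromosome IV peaks (21.2%; Fisher's exact test, adjusted p = 0.0370). All positions differ the same way, with 14.4% in the windows and 19.4% on the rest of the chromosome at a promoter. Both groups of replicate 1 peaks stood above their own positions. At equal GC content the positions of the windows would give 186 replicate 1 members at a promoter, against 200 seen (ratio 1.08). For replicate 2 they would give 18.1, against 24 seen (ratio 1.32). The call was lost in replicate 2, at 18.6% against 25.1% (Fisher's exact test, adjusted p = 0.754). It was also lost in the proximal window alone (17.3%, Fisher's exact test, adjusted p = 0.0681) and with a promoter of 200 bp to either side.

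The motif of the factor's own family did not separate members from other peaks by the test. AAGTTT on either strand stood within 100 bp of the summit in 263 replicate 1 members (23.4%), against 770 other chromosome IV peaks (22.7%; Fisher's exact test, adjusted p = 0.743), while 37.2% of positions in the windows and 32.8% on the rest of the chromosome hold it. In replicate 2 it stood in 40 members (31.0%), against 86 other chromosome IV peaks (36.6%). Of the 24 pooled members 3 held it (12.5%). AAGTTT is itself AT-rich, and at equal GC content 297 replicate 1 members and 50.7 replicate 2 members would hold it (ratios 0.885 and 0.789).

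Genes for other small RNAs met a few members. A tRNA gene began 100 bp or less from the summit in 7 replicate 1 members (0.624%), against 6 other chromosome IV peaks (0.177%), and 0.132% of the positions of the windows. The one at WBGene00022959, upstream of the trypsin-like protease gene try-3 at chrIV:6556634-6556953, was a member of all 3 larger lists, with signal scores of 14.5 in replicate 1, 18.5 in replicate 2 and 32.9 in the pooled list. The tRNA genes WBGene00014560 and WBGene00014599, in the distal window, carried replicate 1 peaks with scores of 17.2 and 17.0. A snoRNA gene began within that distance in 1 replicate 1 member (0.0891%), against 10 other chromosome IV peaks (0.295%), and a microRNA gene in 1 (0.0891%), against 3 (0.0884%). A replicate 1 member with a score of 10.7 lay at the microRNA gene mir-52, chrIV:14033788-14034107.

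Few replicate 1 members were found again in replicate 2, as on the rest of the chromosome. The replicate 2 list holds 2036 peaks, against 30000 in replicate 1, so only a small share of replicate 1 peaks could be overlapped. Of the 1122 replicate 1 members, 37 were overlapped by a replicate 2 peak by at least 1 bp (3.30%, exact 95% interval 2.33 to 4.52%), against 74 of 3395 other chromosome IV peaks (2.18%), where 2.39% of the peaks of all chromosomes were. The difference did not pass the threshold after adjustment (Fisher's exact test, p = 0.0446, adjusted p = 0.0743). Of the 129 replicate 2 members, 37 were overlapped by a replicate 1 peak (28.7%), against 67 of 235 other chromosome IV peaks (28.5%; Fisher's exact test, p = 1), and 33.3% over all chromosomes. Replicate 1 peaks covered 5.72% of the positions of the windows and 9.49% of those on the rest of chromosome IV. The part of this coverage in the overlaps was not tested. Of the 24 pooled members 23 overlapped a replicate 1 peak, 15 a replicate 2 peak and 14 both. The pooled list was made from both replicates, so these overlaps are not independent of them.

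The shared members had a median replicate 1 signal score of 10.6, against 8.65 for the members that were not shared, and on the rest of the chromosome 8.90 for shared peaks and 8.86 for the others. Of the 37 shared members, 10 (27.0%) lay within 100 bp of a 21ur 5′ end, among them the peaks in daf-38 at chrIV:15822325-15822644, in anoh-2 at chrIV:14668845-14669164, in eps-8 at chrIV:14884937-14885256 and at ceh-48, a homeobox gene, at chrIV:6811652-6811971. Signal score did not separate members from other peaks by the test: 377 replicate 1 members (33.6%) were in the third of the chromosome's peaks with the highest scores, against 1128 of the others (33.2%; Fisher's exact test, adjusted p = 0.827).

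**Figure D5:**
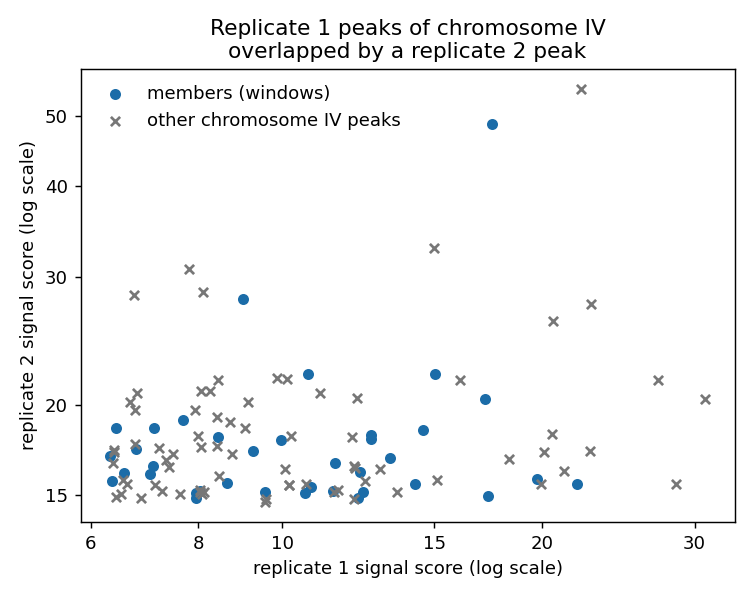
Signal scores of the 111 replicate 1 peaks of chromosome IV that a replicate 2 peak overlapped: replicate 1 score (horizontal axis, log scale, authors' units) against the highest score of the overlapping replicate 2 peak (vertical axis, log scale), with 37 members as circles and 74 other peaks as crosses. The member at 17.5 in replicate 1 and 48.7 in replicate 2 stands above all other members.

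The strongest member of the windows by the pooled, thresholded and replicate 2 lists was 1 peak without piRNA genes. It lay at chrIV:4749893-4750212 in the proximal window, with a score of 70.2 in the pooled list, 48.7 in replicate 2 (rank 32) and 17.5 in replicate 1 (rank 856). Its summit was between divergent genes, 187 bp from the 5′ end of Y17G9B.5 and 275 bp from that of rpl-20, which encodes a protein of the large ribosomal subunit. The nearest 21ur gene, 21ur-11429, was 17671 bp away. A second peak of the same neighbourhood, chrIV:4748480-4748799 with its summit 372 bp inside the cytochrome c gene cyc-2.1, was in both replicates as well, with scores of 21.9 in replicate 1 (rank 191), 15.5 in replicate 2 (rank 1432) and 38.6 in the pooled list.

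Other members named from the pooled list were found in both replicates too, mostly at protein-coding genes. The peak at chrIV:15471450-15471769 lay close upstream of ntl-11, a subunit gene of the CCR4-NOT deadenylase complex, with scores of 41.0 in the pooled list, 27.9 in replicate 2 and 9.02 in replicate 1, where it ranked 14269. The peak in an exon of T23G4.127 at chrIV:13695611-13695930 scored 37.9 in the pooled list, 19.7 in replicate 1 and 15.8 in replicate 2. A further one 649 bp from usp-4 scored 31.6, 12.7 and 18.2 in the pooled, replicate 1 and replicate 2 lists, and one in an exon of the zinc finger gene tlp-1 scored 29.9, 12.3 and 16.2. The peaks at dpy-4, a cuticle collagen gene that overlaps atln-2, and at srd-13, of the chemoreceptor family, were in the pooled and replicate 1 lists only. The srd-13 peak, chrIV:5635200-5635519, held 2 21ur genes with the nearest 77 bp from its summit, and the peak at chrIV:15371132-15371451 held 1, 83 bp from its summit.

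Of the 15 strongest replicate 1 members, those at cyc-2.1 and in T23G4.127 overlapped a replicate 2 peak and 13 did not. A replicate 2 peak overlapped 3.30% of all replicate 1 members and 2.39% of replicate 1 peaks of all chromosomes. The 15 had scores of 19.3 to 25.3. The highest, 25.3 at chrIV:6792954-6793273, had its summit inside the snoRNA gene C17H12.36, 2040 bp from the 5′ end of vha-8, which encodes a subunit of the vacuolar proton pump. The next, 24.3 at chrIV:13893007-13893326, lay in an exon of lin-66, a gene of developmental timing. Exons of itsn-1, an endocytic scaffold gene, of the collagen gene col-110, of C46G7.5 and of tag-273 carried peaks with scores of 20.5, 19.6, 20.1 and 19.6. The nearest 21ur 5′ end to any of the 15 summits was 231 bp away, at the tag-273 peak, and the farthest was 25673 bp away, at the peak in F19C7.4.

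Of the 10 strongest replicate 2 members, those at Y17G9B.5, at ntl-11 and at chrIV:14033442-14033801 overlapped a replicate 1 peak and 7 did not. A replicate 1 peak overlapped 28.7% of all replicate 2 members and 33.3% of replicate 2 peaks of all chromosomes. The 10 had scores of 20.4 to 48.7. Apart from the peaks at Y17G9B.5 and ntl-11 they included one 176 bp from fcd-2, a DNA crosslink repair gene, with a score of 26.3 and one 585 bp from sams-3, an S-adenosylmethionine synthetase gene, with 23.7. Others lay in anat-1 (23.3) and in kcc-2, a potassium-chloride cotransporter gene (20.4). The peaks at chrIV:14474781-14475140 and chrIV:17037296-17037655 held 1 21ur gene each and were poor in GC, at 23.4% and 26.4%. None of the 10 had a 21ur 5′ end within 100 bp of its summit.

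The windows have fixed edges, and the peaks next to them were ordinary ones. The members nearest the 4 edges, in the order of position, had summits 3762, 1024, 978 and 4038 bp inside and replicate 1 scores of 9.44, 8.53, 7.75 and 7.10. The nearest peaks beyond the edges lay 4655, 1916, 5183 and 6545 bp outside, with scores of 13.1, 10.5, 13.2 and 9.43.

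Genes that make and use piRNAs were looked at from a list of 26, of which 24 matched an annotated protein-coding gene, none of them in the windows. RefSeq annotates 1 more, prg-2, a relative of the Piwi gene prg-1, as a pseudogene inside the proximal window, at chrIV:6526962-6529802. The tenth strongest replicate 1 member, chrIV:6528988-6529307 with a score of 19.9, had its summit in an exon of prg-2, 654 bp from its 5′ end, and no summit of the other lists lay within 1000 bp. The gene is a close copy of prg-1, so the peaks at both are uncertain where reads could be placed on either. Replicate 1 summits stood 1000 bp or less from the 5′ end of 18 of the 24, against 48.9% of all nuclear protein-coding genes. They included prg-1, the Piwi protein itself, with a score of 17.7 at 890 bp, snpc-4, a factor bound at the piRNA clusters, with 13.5 at 859 bp, and prde-1, needed for piRNA precursor transcription, with 10.7 at 616 bp. In replicate 2 only tofu-1 had one (4.17%, against 4.81% of all genes), with a score of 17.3 at 240 bp. None of the 24 had one in the pooled list, where 1.58% of all genes did, or in the thresholded list, where 0.205% did, and the exact 95% upper limit for 0 of 24 is 14.2%.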

How the data were processed

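Peak lists on ce11, 1 for each of 2 biological replicates, 1 relaxed list of both pooled and 1 thresholded list, were used as the authors deposited them; per the labels' text records the last was derived from the others by the irreproducible discovery rate. The deposited signal score and the deposited −log10 q-value are the authors' values for each peak and were used only to rank or describe peaks within a list. Not given in the sources used here: the peak caller, aligner, read filters and threshold. The lists hold no read numbers, so depth is unknown. Lists on ce10 were not used here, and 0 per-sample columns were left aside.

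Summits were placed on the WBcel235 sequence (RefSeq) with the Ensembl 115 annotation; a gene's 5′ end was its annotated start, for 21ur genes that of the 21-base gene. Rates were compared by an exact conditional test and shares by Fisher's exact test, two-sided. Benjamini-Hochberg adjustment was made separately for each list, window and setting, over 5 tests. It was over fewer in the pooled list, which had no test of shared peaks. Shares near 21ur genes or CTGTTTCA have exact Clopper-Pearson 95% intervals and were set beside all positions. The calculations were checked on simulated data. Named members are the 15 highest by signal score in replicate 1, the 10 highest in replicate 2 and in the pooled list, the thresholded member and those next to the edges; sequence stretches meeting a UTR were left out. Members, lists and tests were chosen with earlier results of these data known; prg-2, the piRNA-rich, small RNA and shared members, the bins and the comparison between replicates were chosen after the values were seen. Python 3.11.15, numpy 2.4.6, scipy 1.17.1 and pandas 2.3.3 were used.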

Additional observations from a re-analysis of the deposited data

How the results depend on the processing

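Of 77 alternatives, 38 kept direction and outcome, and 10 kept the outcome while the direction turned or became 0: 4 of the share with the highest signal scores (0.861 to 1.00), 5 of the AAGTTT share (0.596 to 0.993) and the GC difference in the distal window (0). For the 5 tested results the outcome was the side of the threshold. For the 21ur and CTGTTTCA ratios, not tested, it was a value inside the main interval. For the GC difference it was a shift below the standard deviation between the replicates. That limit came from the replicate 1 and replicate 2 differences themselves, so the setting without replicate 1 exceeded it by construction. With replicate 2 in place of replicate 1 (without replicate 1) the rate ratio was 1.00, the promoter ratio 0.741, the 21ur ratio to all positions 1.22, the CTGTTTCA ratio 0.957 and the GC difference to the other peaks -3.98 points. With the pooled list these were 0.705, 1.03, 0.699, 0 and -3.73. With the strongest replicate 1 peaks the promoter ratio was 1.05, the 21ur ratio 0.221, the CTGTTTCA ratio 0.180 and the GC difference 1.99 points. With peaks at a q-value of 0.05 or less, added after seeing the data, the rate ratio was 0.600, the 21ur ratio 0.244 and the CTGTTTCA ratio 0.125. At equal GC content, also added then, they were 0.787, 1.05 and 1.13. The promoter call was lost in the proximal (0.815) and distal window (0.873), in the middle (0.732) and outer parts of the chromosome (0.908) and at 200 bp (0.937). The distal window gave a 21ur ratio of 0.497 and a CTGTTTCA ratio of 0.591, and the middle part a 21ur ratio of 0.536 and a GC difference of 0.75 points. Leaving out summits within 1000 bp of a stronger one raised the shared ratio to 1.80, past the threshold. The cause of each change was not tested. The distal window has no length in the middle of the chromosome, the shared peaks could not be taken from the pooled list, and the strongest peaks were not split again by signal score. No paired analysis was possible because there is 1 group. Depth, not known, and 24 pooled members limit what can be told apart.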
